A study of Mus musculus with 9 samples.

Results

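The genes described are 10 antiviral effectors that interferon switches on: Ifit1, Ifit2 and Ifit3, the oligoadenylate synthetase genes Oas1a, Oas2, Oas3, Oasl1 and Oasl2, and the GTPase genes Mx1 and Mx2. They were chosen by name: every probe set that the array annotation pairs with 1 of these symbols alone was taken, which gave 10 probe sets for 10 of the 18193 named genes, of 45037 probe sets in all. All 10 passed the filter on dim signal and entered the test over 12652 genes. RNA came from CD45.1+ LKS+ cells of bone marrow, lineage-negative cells with Kit and Sca-1 that hold blood stem cells and early progenitors, sorted from C57BL/6 mice labelled as 8 weeks old. The groups were leukemic mice at day 14, leukemic mice at day 7 and control mice, with 3 arrays each. The submitters describe the sorted cells as normal stem cells at different stages of acute myeloid leukemia, and CD45.1, a variant of a blood cell surface antigen, was part of the sort in all 3 groups. How the leukemia was induced, the number of animals per sample and any pooling are not given in the sources used here. No time point is given for the control mice, so effects of time and of leukemia cannot be told apart. The samples are called biological replicates with no word on separate animals or sorts, and a p-value here speaks only for the spread among these 9 arrays.

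Type I interferons bind a receptor of Ifnar1 and Ifnar2, whose kinases Jak1 and Tyk2 phosphorylate STAT proteins. With Irf9 these form the factor ISGF3, which binds a DNA element, the interferon-stimulated response element, at genes such as those described here. IFIT proteins bind foreign RNA and block its translation, OAS enzymes sense double-stranded RNA and make short oligoadenylates, and MX proteins are dynamin-like GTPases that trap viral nucleoproteins. In blood stem cells, interferon is known to drive quiescent cells into cycle, and stem cells are known to keep a level of such genes without infection.

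Promoter sequence is shown for the 4 members in which the response element core was found. Whether the core bears on how the members moved across the arrays was not tested. The windows run from 250 bases before to 50 bases after the start of transcription, are taken from RefSeq on GRCm38.p6 and read along the gene, and the capitals mark matches to GAAA, any 2 bases and GAAA again, the core of the interferon-stimulated response element, searched on both strands. A match on the other strand reads TTTC, any 2 bases and TTTC here, and overlapping matches share letters. Of the 10 genes, 7 had a window in the table, namely Ifit1, Ifit2, Ifit3, Oas1a, Oas3, Oasl1 and Oasl2.
Ifit1 (chr19:34640639-34640938, plus strand): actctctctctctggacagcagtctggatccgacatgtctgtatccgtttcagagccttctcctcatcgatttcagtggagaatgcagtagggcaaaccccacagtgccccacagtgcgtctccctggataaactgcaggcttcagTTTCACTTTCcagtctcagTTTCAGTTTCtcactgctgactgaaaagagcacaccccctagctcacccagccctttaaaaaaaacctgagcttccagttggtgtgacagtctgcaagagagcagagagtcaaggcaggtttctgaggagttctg
Ifit3 (chr19:34583279-34583578, plus strand): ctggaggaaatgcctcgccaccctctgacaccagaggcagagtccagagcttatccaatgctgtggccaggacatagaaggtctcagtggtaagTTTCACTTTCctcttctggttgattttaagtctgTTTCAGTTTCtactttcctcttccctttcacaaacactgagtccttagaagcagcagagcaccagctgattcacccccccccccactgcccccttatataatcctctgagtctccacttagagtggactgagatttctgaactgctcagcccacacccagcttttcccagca
Oas1a (chr5:120907476-120907775, minus strand): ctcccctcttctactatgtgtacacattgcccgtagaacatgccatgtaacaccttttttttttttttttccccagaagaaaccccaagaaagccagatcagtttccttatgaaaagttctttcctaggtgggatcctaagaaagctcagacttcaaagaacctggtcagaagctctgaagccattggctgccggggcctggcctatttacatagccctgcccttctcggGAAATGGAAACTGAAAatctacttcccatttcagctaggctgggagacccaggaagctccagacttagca
Oas3 (chr5:120777610-120777909, minus strand): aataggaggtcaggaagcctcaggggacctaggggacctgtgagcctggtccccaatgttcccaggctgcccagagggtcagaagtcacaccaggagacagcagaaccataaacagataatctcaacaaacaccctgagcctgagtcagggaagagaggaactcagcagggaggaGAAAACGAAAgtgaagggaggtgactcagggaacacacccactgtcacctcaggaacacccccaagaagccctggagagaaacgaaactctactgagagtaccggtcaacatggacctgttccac
Ifit1 held 2 matches, which begin 104 and 85 bases before the start, and Ifit3 held 2, which begin 156 and 122 bases before it. In both genes the 2 matches read TTTCACTTTC and TTTCAGTTTC, in the same order. Oas1a held 2 overlapping matches, GAAATGGAAA and GAAACTGAAA, beginning 20 and 14 bases before the start, and Oas3 held GAAAACGAAA beginning 75 bases before it. Of all 27025 genes with a window, 3.99% (1079) held the core, against 4 of the 7 members, 9 of 21 other interferon-stimulated genes listed with a window, and 3 of 5 near copies of the members. The search finds letters only and says nothing about binding. The windows of Ifit2, Oasl1 and Oasl2 did not hold these letters.

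All 10 genes were lower at day 14 than in control, and the largest falls were those of Ifit1 and Ifit3. In limma with Benjamini-Hochberg adjustment over 12652 genes, 10 of 10 fell and 0 rose at day 14, where 34.1% of all tested genes fell and 18.3% rose. At day 7, 4 of 10 fell and 0 rose, where 1.13% of all tested genes fell and 2.21% rose. At day 14 against day 7, 5 of 10 fell and 0 rose, where 33.6% of all tested genes fell and 17.4% rose. The median log2 change of the 10 was -1.34 for day 14 and -0.90 for day 7 against control and -0.52 between the days, beside -0.06, 0.01 and -0.06 over all tested genes. The groups did not overlap for 9 of 10 genes at day 14 against control, 7 of 10 at day 7 against control and 4 of 10 between the days, where 37.3%, 11.3% and 38.6% of all tested genes lay lower without overlap. The comparisons share the control or the day 7 arrays, so their counts are not independent. In bulk RNA of sorted cells, fewer cells with a transcript and less transcript per cell cannot be told apart. Intensities are the authors' normalized values on a linear scale, and each change is given on the log2 scale with the standard error of the fit.

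**Figure D1:**
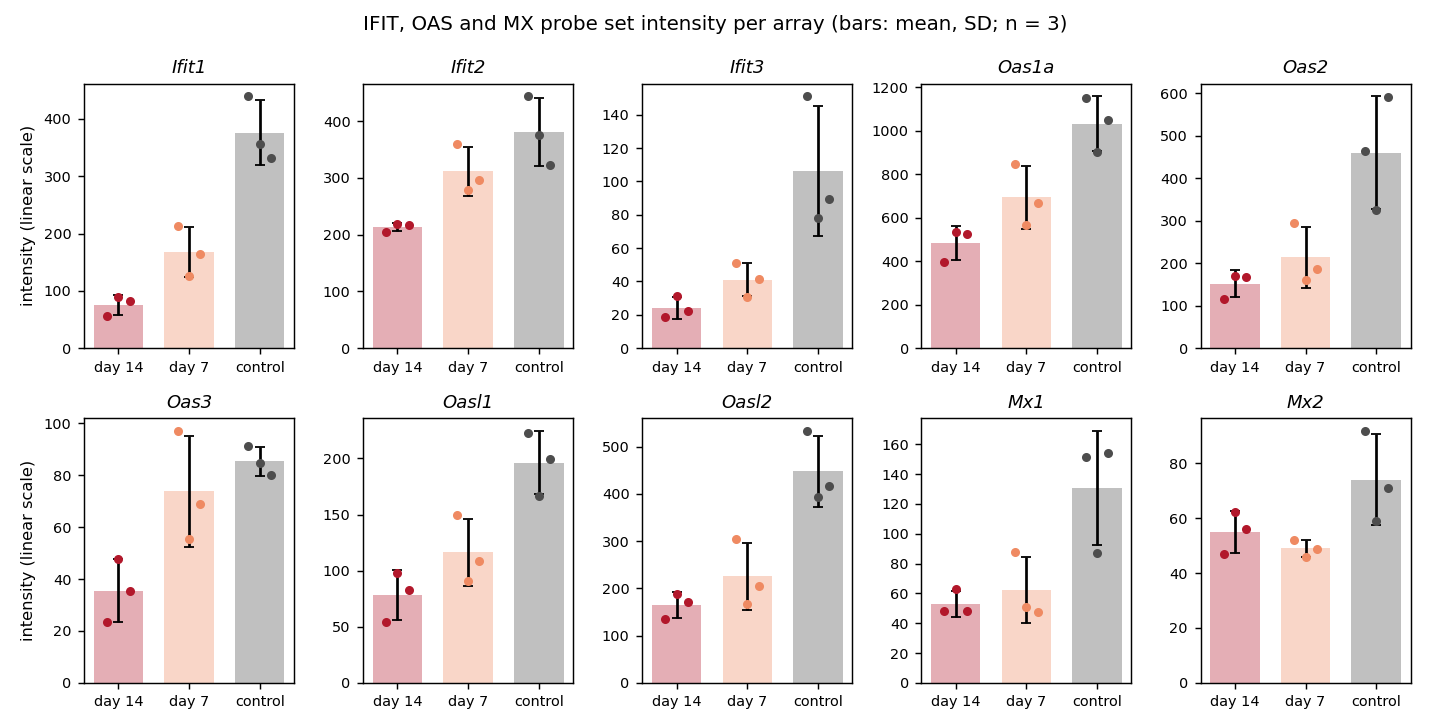
Probe set intensity (linear scale) of the 10 genes in every array, with day 14 left, day 7 in the middle and control right; dots are arrays, bars the mean and error bars the SD (n = 3). The day 14 mean lay below the control mean in all 10 genes, and below the day 7 mean in 9, the exception being Mx2.

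Among the IFIT genes, Ifit1 (probe set 1450783_at), whose protein binds the capped end of RNA that lacks the methyl marks of host messages, showed the largest change of the members at day 14 against control and between the days, while at day 7 against control Ifit3 changed more. It had an intensity of 55.9, 88.5 and 82.0 in the day 14 arrays, 213, 125 and 165 in the day 7 arrays and 439.7, 355 and 332 in the control arrays. The groups formed 3 separate ranges, with day 14 lowest and control highest. Means were 75.5 ± 17.3 at day 14, 168 ± 44.1 at day 7 and 376 ± 56.7 in control (SD, n = 3 each), and the fitted level was 5.04-fold lower at day 14 than in control and 2.28-fold lower at day 7 than in control. The log2 change was -2.33 (SE 0.21, adjusted p = 2.52e-05) at day 14, -1.19 (SE 0.21, adjusted p = 0.0185) at day 7 and -1.15 (SE 0.21, adjusted p = 0.00123) between the days.

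Ifit3 (probe set 1449025_at), which encodes a partner that stabilises IFIT complexes, had an intensity of 18.9, 31.3 and 22.1 in the day 14 arrays, 51.3, 30.9 and 41.3 in the day 7 arrays and 151, 78.3 and 89.7 in the control arrays. Every leukemic array lay below every control array, but one day 14 array lay above the lowest day 7 array. Its log2 change was -2.11 (SE 0.27, adjusted p = 1.53e-04) at day 14 and -1.34 (SE 0.27, adjusted p = 0.028) at day 7. Between the days it was -0.77 (SE 0.27, adjusted p = 0.033). The 3 control arrays were spread widely, with a coefficient of variation of 36.8%, the highest of the 10 genes. The mouse genome holds a near copy, Ifit3b, and whether the Ifit3 probes also bind it was not tested.

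Ifit2 (probe set 1418293_at), whose protein is linked to cell death as well as RNA binding, fell least of the IFIT genes. It had an intensity of 205, 219 and 216 in the day 14 arrays, 360.2, 279 and 296 in the day 7 arrays and 444, 375 and 324 in the control arrays. The day 14 arrays were tight and lay below all others, while day 7 and control overlapped. The log2 change was -0.82 (SE 0.12, adjusted p = 3.67e-04) at day 14 and -0.54 (SE 0.12, adjusted p = 0.00406) between the days. At day 7 it was -0.29 (SE 0.12, adjusted p = 0.22), with a 95% interval of -0.56 to -0.02, and did not pass.

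Of the 5 OAS genes, all fell at day 14, Oas2 and Oasl2 fell at day 7, and Oas1a and Oas3 fell between the days. Oas2 (probe set 1425065_at), a synthetase anchored to membranes, had an intensity of 115, 171 and 168 in the day 14 arrays, 296, 161 and 186 in the day 7 arrays and 464, 325 and 591 in the control arrays. Leukemic arrays all lay below the control arrays, and the 2 leukemic groups overlapped. Its log2 change was -1.58 (SE 0.26, adjusted p = 7.21e-04) at day 14 and -1.11 (SE 0.26, adjusted p = 0.0491) at day 7, and -0.47 between the days (adjusted p = 0.156). Oas2 was the member whose day 7 call was nearest to the threshold.

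Oasl2 (probe set 1453196_a_at), which in mouse encodes an active synthetase with a ubiquitin-like tail, had an intensity of 136, 189 and 171 in the day 14 arrays, 304, 167 and 205 in the day 7 arrays and 533, 393 and 417 in the control arrays. It showed the same layout as Oas2, with both leukemic groups below control and overlapping each other. The log2 change was -1.44 (SE 0.21, adjusted p = 3.28e-04) at day 14, -1.02 (SE 0.21, adjusted p = 0.0294) at day 7 and -0.41 between the days (adjusted p = 0.119). Oasl1 (probe set 1424339_at), which in mouse encodes an inactive relative that blocks translation of Irf7, had an intensity of 54.0, 97.8 and 83.1 in the day 14 arrays, 149.6, 90.8 and 108 in the day 7 arrays and 223, 167 and 199 in the control arrays. Its groups were also separate from control on both days. Its log2 change was -1.36 (SE 0.23, adjusted p = 7.63e-04) at day 14. At day 7 it was -0.78 with an interval of -1.28 to -0.27, and between the days -0.58 with an interval of -1.09 to -0.08, and neither passed (adjusted p = 0.092 and 0.0537).

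Oas1a (probe set 1424775_at), the mouse counterpart of the small human synthetase, had an intensity of 394, 533 and 527 in the day 14 arrays, 848, 565 and 666 in the day 7 arrays and 1149.7, 899 and 1047 in the control arrays. The 3 groups did not overlap, with day 14 lowest. Its log2 change was -1.10 (SE 0.16, adjusted p = 3.72e-04) at day 14, -0.59 at day 7, which did not pass (adjusted p = 0.0792), and -0.51 (SE 0.16, adjusted p = 0.023) between the days. Oas3 (probe set 1425374_at), the large synthetase that senses long double-stranded RNA, had an intensity of 23.5, 47.8 and 35.5 in the day 14 arrays, 97.1, 55.4 and 68.9 in the day 7 arrays and 91.3, 84.8 and 80.3 in the control arrays. Here day 7 spanned the control range and only day 14 lay apart. The log2 change was -1.32 (SE 0.25, adjusted p = 0.00141) at day 14, -0.25 at day 7, with an interval of -0.79 to 0.30 (adjusted p = 0.633), and -1.07 (SE 0.25, adjusted p = 0.00439) between the days.

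Both MX genes fell at day 14, and neither passed the test at day 7 or between the days. In most inbred laboratory strains, C57BL/6 among them, Mx1 is known to carry a deletion that leaves no working protein, which its transcript level does not show. Mx1 (probe set 1451905_a_at) had an intensity of 48.1, 63.1 and 48.1 in the day 14 arrays, 87.6, 51.2 and 47.7 in the day 7 arrays and 152, 86.9 and 154 in the control arrays. All day 14 arrays lay below the control arrays, while the highest day 7 array exceeded the lowest control array. Its log2 change was -1.26 (SE 0.26, adjusted p = 0.0026) at day 14. At day 7 it was -1.08 (interval -1.66 to -0.50, adjusted p = 0.053), and between the days it was -0.18 (interval -0.76 to 0.40, adjusted p = 0.584).

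Mx2 (probe set 1419676_at), the cytoplasmic relative, had an intensity of 46.9, 62.3 and 55.9 in the day 14 arrays, 52.2, 46.0 and 48.9 in the day 7 arrays and 91.8, 59.0 and 71.1 in the control arrays. It was the only member whose lowest mean was at day 7. Its log2 change was -0.41 (SE 0.15, adjusted p = 0.041) at day 14, where one day 14 array lay above the lowest control array. At day 7 it was -0.57 (interval -0.91 to -0.24, adjusted p = 0.0698), with no overlap with control, and between the days it was 0.16 (interval -0.17 to 0.49, adjusted p = 0.397). The day 14 call for Mx2 was lost with either other scaling of the arrays and without any of 7 single arrays, namely control replicates 1 and 3, day 14 replicates 1 and 3 and the 3 day 7 arrays. Over the 9 fits that leave out an array its adjusted p ran from 0.00918 to 0.147 and its log2 change from -0.56 to -0.24.

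**Figure D2:**
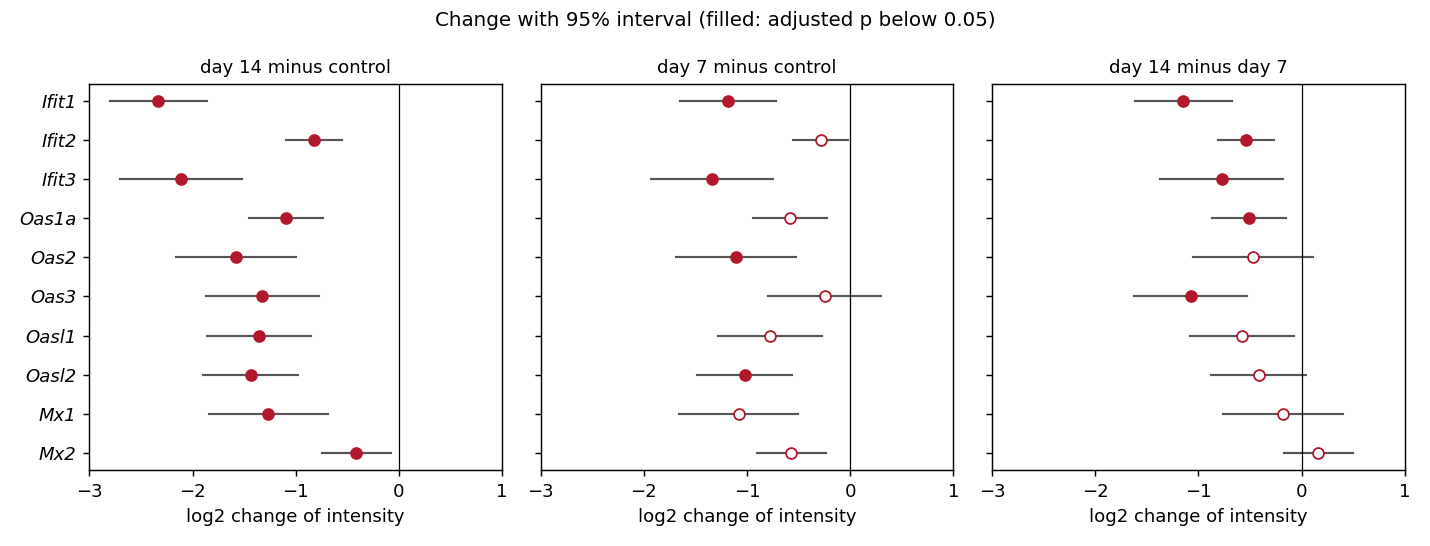
Log2 change of intensity of each gene for day 14 minus control, day 7 minus control and day 14 minus day 7, with 95% intervals; filled points have an adjusted p below 0.05 (10, 4 and 5 of 10). The change at day 14 ran from -2.33 in Ifit1 to -0.41 in Mx2.

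The calls at day 7 rested on few arrays, while 9 of the 10 at day 14 did not. The 4 day 7 calls, Ifit1, Ifit3, Oas2 and Oasl2, became 0 when control replicate 1 or 3, or day 7 replicate 2 or 3, was left out. Leaving out day 14 replicate 2 or 3 gave 3 calls, leaving out replicate 1 of either leukemic group gave 5, and leaving out control replicate 2 gave 6. In these 4 fits with 0 calls the median log2 change of the 10 genes was -0.79, -0.83, -0.72 and -0.83. For the 9 members other than Mx2, the day 14 call held in every fit run, with any array left out. The 5 calls between the days became 3 when replicate 1 of either leukemic group was left out and 4 when replicate 3 of either was. They became 6 and 7 with replicate 2 of day 14 or of day 7 left out. Ifit1, Ifit2 and Oas3 were called in all 9.

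The 10 genes were spread more widely between replicates than most genes. The median SD of log2 intensity of the members was 0.28 at day 14, 0.38 at day 7 and 0.23 in control. Over all tested genes it was 0.10 at day 14, 0.07 at day 7 and 0.09 in control. Their SD lay in the top 10% of tested genes for 8 of 10 at day 14, 9 of 10 at day 7 and 8 of 10 in control. Oas3, with 6.47%, had the lowest coefficient of variation in control, and Ifit3 the highest.

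Within a group the genes moved together from array to array. At day 14, replicate 2 was the highest of the 3 arrays for 10 of 10 genes, and replicate 1 was the lowest for 9, while Mx1 held equal values in replicates 1 and 3. At day 7, replicate 1 was the highest for 10 of 10 and replicate 2 the lowest for 9. In control, replicate 1 was the highest for 8 genes and replicate 3 for Oas2 and Mx1, and replicate 2 was the lowest for 7. Relative to the group mean, the mean of the 10 genes lay at -0.31, 0.26 and 0.05 on the log2 scale in day 14 replicates 1, 2 and 3, at 0.37, -0.30 and -0.08 in those of day 7, and at 0.24, -0.24 and -0.0037 in those of control. The median of all tested genes lay within 0.0177 of its group mean in every array. The lowest control array for the members together, replicate 2 at 0.50 relative to the mean over 9 arrays, lay above the highest leukemic array, day 7 replicate 1 at 0.28.

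**Figure D3:**
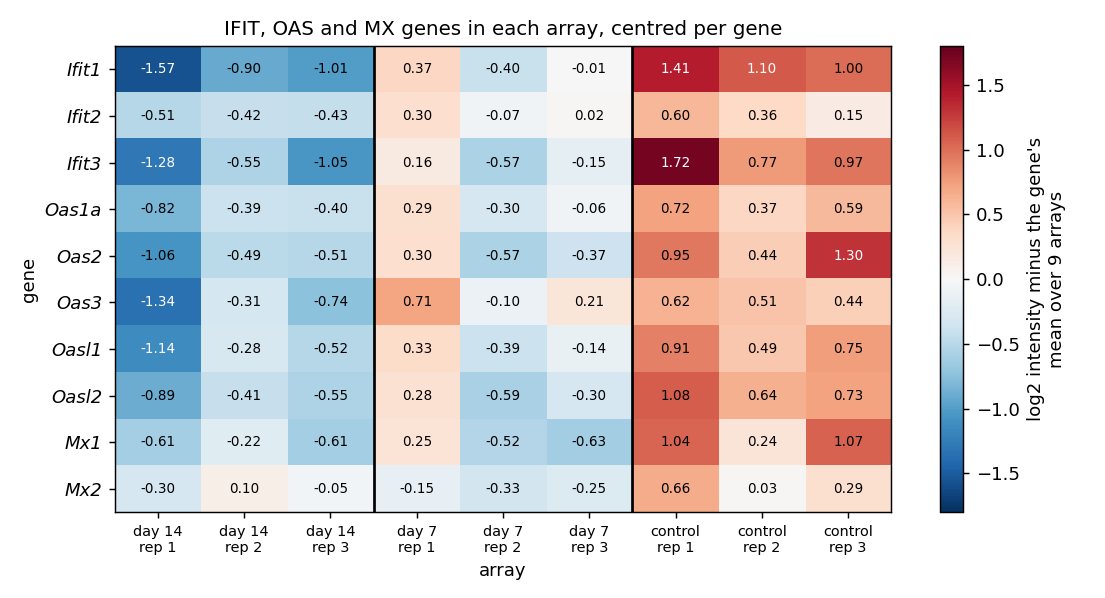
Log2 intensity of each gene in each array, minus the gene's mean over the 9 arrays, with day 14 left and control right; red is above and blue below the mean. The control columns lie above the mean for all 10 genes, and day 7 replicate 1 is the highest day 7 column for all 10.

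As a description over the 9 arrays, which share the 3 groups, each member was set against the mean of the other 9, each centred on its own mean. Pearson's r was 0.993 for Oas1a, 0.990 for Oasl1, 0.986 for Oasl2, 0.981 for Ifit3, 0.972 for Ifit1, 0.955 for Oas2, 0.912 for Ifit2, 0.906 for Mx1, 0.866 for Oas3 and 0.742 for Mx2. Mx2 followed the others least. The 8 tested genes outside the 10 whose values were most like the mean of the members were Usp18 (r = 0.995), Dhx58 (0.988), 1600014C10Rik (0.983), Parp9 (0.983), Xaf1 (0.983), Rnf213 (0.981), Herc6 (0.979) and Lgals3bp (0.978). They were picked by likeness over these same 9 arrays, so lower values in the leukemic groups follow from that choice. Their order, changes and adjusted p below describe them and are no separate evidence. Usp18, which removes Isg15 from proteins and brakes the receptor, had an intensity of 102, 174 and 150.4 in the day 14 arrays, 318, 184 and 239 in the day 7 arrays and 619, 438 and 453 in the control arrays. It ran in the same order as Ifit1, with 3 separate groups. Rnf213, a large ubiquitin ligase, changed by -0.90 (SE 0.12, adjusted p = 2.15e-04) at day 14 and -0.68 (SE 0.12, adjusted p = 0.0177) at day 7, the day 7 call being lost without control replicate 1 or 3 or day 7 replicate 2 or 3 (adjusted p = 0.0577 to 0.0728). For 1600014C10Rik the day 14 change was -0.51 (SE 0.08, adjusted p = 4.20e-04), with -0.23 at day 7 (adjusted p = 0.125).

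Of 10 listed near copies of the members, 7 had a probe set with their symbol alone and 5 were tested. Of these 5, 3 fell and 2 rose at day 14, and 2 fell and 0 rose at day 7. At day 14, 34.1% of all tested genes fell and 18.3% rose, and at day 7, 1.13% fell and 2.21% rose. The day 7 count of 2 became 0 with no filter on dim probe sets. Oas1f, 1 of the 2 that rose, passed the filter on dim signal only through its day 14 arrays. These lay at 15.3, 17.6 and 16.2, against 11.3 to 13.3 in the other arrays, so its rise cannot be read from this test. Ifit1bl1, a close relative of Ifit1, had an intensity of 15.2, 22.3 and 20.9 in the day 14 arrays, 39.4, 29.4 and 36.1 in the day 7 arrays and 86.7, 75.2 and 72.7 in the control arrays. Its 3 groups were separate in the order of Ifit1, with log2 changes of -2.02 (SE 0.15, adjusted p = 9.84e-06) at day 14 and -1.17 (SE 0.15, adjusted p = 0.00626) at day 7. Oas1b, the gene of flavivirus resistance that carries a stop codon in C57BL/6, changed by -0.80 (SE 0.11, adjusted p = 2.75e-04) at day 14 and -0.59 (SE 0.11, adjusted p = 0.0245) at day 7, a call lost without control replicate 1 or 3 or day 7 replicate 2 or 3 (adjusted p = 0.0743 to 0.0949). Oas1c fell by 0.69 on the log2 scale at day 14 (adjusted p = 3.30e-04) and by 0.50 between the days (adjusted p = 0.00185). Oas1e and Oas1f rose slightly at day 14, by 0.30 and 0.34 (adjusted p = 0.00782 and 0.00352), at mean intensities of 80.4 and 16.4, and the Oas1f call was lost without any 1 of the 3 day 14 arrays, since it then did not pass the filter on dim signal. Ifit1bl2 and Oas1h, also with a probe set, did not pass that filter with all 9 arrays either. Probes of one copy can bind RNA of another, which was not tested.

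Downstream of the OAS enzymes, 2 genes were tested. Pde12, which degrades their oligoadenylate product, rose by 0.50 (SE 0.10, adjusted p = 0.00161) at day 14, but was at -0.16 with the mean of its 3 probe sets. Abce1, a ribosome recycling factor that also acts on the oligoadenylate pathway, was at -0.15 (adjusted p = 0.233).

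Genes upstream of the members were called in both directions at day 14, where 34.1% of all tested genes fell and 18.3% rose. Of 20 listed interferon ligand genes, 9 had a probe set and 1 passed the filter on dim signal: Ifna1, at 30.7 ± 2.88 at day 14, 21.2 ± 0.71 at day 7 and 23.7 ± 2.18 in control, rose by 0.37 (SE 0.09, adjusted p = 0.00591) at day 14. Ifnb1 and Ifng, at means of 11.4 and 4.18 at day 14 and 9.80 and 3.78 in control, did not pass the filter. Of 6 receptor genes 3 fell at day 14 and 0 at day 7. They were Ifngr2, part of the interferon gamma receptor, at -0.99 (adjusted p = 6.16e-05), Il10rb, shared with interferon lambda, at -0.49 (adjusted p = 4.32e-04), and Ifnar1 at -0.30 (adjusted p = 0.0141), a call lost with either other scaling. The Ifnar1 call was also lost with the mean of its 2 probe sets (-0.31, adjusted p = 0.0575).

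Of the 5 JAK and ISGF3 genes tested, 2 fell and 2 rose at day 14, beside 34.1% and 18.3% of all tested genes. At day 14, Stat2 (-0.83, SE 0.20, adjusted p = 0.00547) and Irf9 (-0.45, SE 0.12, adjusted p = 0.0112) fell, while the kinase genes Jak1 (0.28, SE 0.06, adjusted p = 0.00339) and Jak2 (0.28, SE 0.06, adjusted p = 0.00263) rose, and Tyk2 was at -0.13 (adjusted p = 0.252). At day 7, 0 of the 5 passed in limma, with Stat2 at -0.73 and Irf9 at -0.48 (adjusted p = 0.0761 and 0.0616, unadjusted p = 0.0041 and 0.00255). Stat2 had an intensity of 35.5, 49.6 and 44.1 in the day 14 arrays, 52.1, 42.6 and 43.7 in the day 7 arrays and 72.8, 57.4 and 105 in the control arrays. Control replicate 2 was the lowest control for Stat2, as for most members. Of 5 other IRF genes, Irf7, the interferon-amplifying factor, fell at day 14 (-1.17, SE 0.22, adjusted p = 0.0015) and day 7 (-0.98, SE 0.22, adjusted p = 0.0415). Irf3, which starts interferon production, fell at day 14 (-0.39, SE 0.07, adjusted p = 0.00101), and Irf8, a myeloid and dendritic cell factor, rose (0.80, SE 0.20, adjusted p = 0.00756).

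Of 7 brakes on the pathway, 2 fell and 2 rose at day 14, beside 34.1% and 18.3% of all tested genes. Usp18 fell by 1.84 on the log2 scale (SE 0.23, adjusted p = 1.45e-04) and the phosphatase gene Ptpn6 by 0.31 (adjusted p = 0.00225). Socs3, an inhibitor of JAK signalling induced by cytokines, rose by 1.57 (SE 0.22, adjusted p = 2.79e-04), with 1915, 1265 and 954 in the day 14 arrays against 440.0, 381 and 525 in the control arrays, and Ptpn2 rose by 0.30 (adjusted p = 0.00669). At day 7 only Usp18 of the 7 passed (-1.05, SE 0.23, adjusted p = 0.0397), where 1.13% of all tested genes fell and 2.21% rose. The day 7 calls of Usp18 and Irf7 were lost, with adjusted p of 0.0603 to 0.126 for Usp18 and 0.0613 to 0.12 for Irf7, without control replicate 1 or 3, without day 7 replicate 2 or 3 and without day 14 replicate 3.

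Of 9 tested nucleic acid sensor genes, 7 fell and 0 rose at day 14, and 1 fell at day 7. Of all tested genes, 34.1% fell at day 14 and 1.13% at day 7. Zbp1, a sensor of Z-form nucleic acid, was at -1.58 (SE 0.26, adjusted p = 6.37e-04), Dhx58 at -1.27 (SE 0.18, adjusted p = 3.32e-04), the RNA-activated kinase gene Eif2ak2 at -1.09 (SE 0.15, adjusted p = 2.94e-04) and Ifih1 at -0.75 (SE 0.12, adjusted p = 6.80e-04). Ddx58, which encodes the RNA sensor RIG-I, also fell at day 14 (-0.68, adjusted p = 8.96e-05) and was the 1 called at day 7 (-0.47, adjusted p = 0.0147), a call lost when control replicate 3 or day 7 replicate 2 or 3 was left out (adjusted p = 0.0545, 0.0646 and 0.0625). Of 26 tested other interferon-stimulated genes, 23 fell at day 14 and 11 at day 7, and 0 rose on either day, with medians of -0.75 and -0.52. Rtp4 (-1.71), Igtp (-1.28), Xaf1 (-1.21) and Irgm1 (-1.19) were the 4 of this list that fell most at day 14. The day 7 count of 11 ran from 2 to 13 with an array left out, and was 3 for control replicate 1, 2 for control replicate 3, 7 for day 14 replicate 2, and 2 for either of day 7 replicates 2 and 3.

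**Figure D4:**
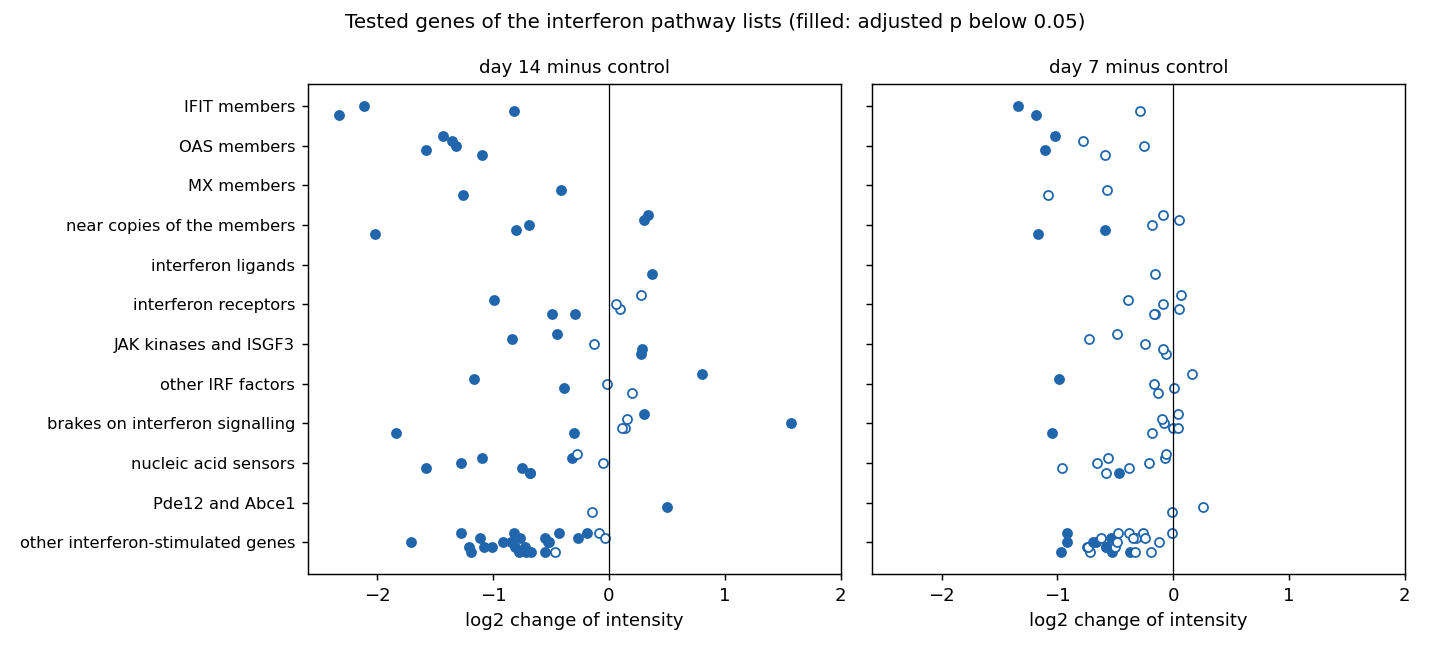
Log2 change of intensity of the tested genes of the members and the interferon pathway lists (cell type markers are not plotted), day 14 minus control left and day 7 minus control right; each point is a gene and filled points have an adjusted p below 0.05. The OAS, IFIT and MX genes all lie below 0, and Socs3, at 1.57, lies furthest above 0 at day 14 among the genes plotted.

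The sorted cells had strong signal for stem and progenitor markers. The summed intensity of 9 of 10 such genes with a probe set, Kit, Cd34 and Flt3 among them, was 9871 to 10622 at day 14, 9909 to 10473 at day 7 and 10739.6 to 11304 in control. Of the 9, Procr and Cd48 fell at day 14, where 34.1% of all tested genes fell and 18.3% rose. The day 14 counts of other markers stand beside the same shares. Kit was at 1696 ± 199 at day 14, 1453 ± 65.5 at day 7 and 1720.4 ± 40.3 in control (SD, n = 3 each). Markers of other cell types were also measured: 8 of 9 B and plasma cell, 4 of 6 T and NK cell, 5 of 8 neutrophil, 3 of 5 red cell and all plasmacytoid dendritic cell, monocyte and megakaryocyte markers with a probe set passed the filter on dim signal. Those that did not were Cd3d and Cd3g of T cells, Lcn2, Cd177 and Mmp8 of neutrophils, Ms4a1 of B cells and Hba-a1 and Alas2 of red cells, none of them at 0.

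Plasmacytoid dendritic cells are a main source of type I interferon. The sum of their 8 listed markers was 1167 to 1384 at day 14, 1167 to 1308 at day 7 and 1181 to 1370.0 in control. Of the 8, Ccr9 (-0.86, adjusted p = 0.014) and Pacsin1 (-0.32, adjusted p = 0.00559) fell at day 14, a count of 1 when control replicate 3 or day 14 replicate 2 was left out. Of all tested genes, 34.1% fell at day 14. Ly6d rose at day 7 (1.08, adjusted p = 0.00734), with a mean of 53.9 at day 7 and 25.2 in control. It was the 1 of the 8 that rose at day 7, where 2.21% of all tested genes rose. That count became 0 with no filter on dim probe sets and with the stricter filter. Siglech, the defining marker, had a mean of 16.7 at day 14, 16.9 at day 7 and 14.6 in control and passed on neither day.

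The sum of 11 monocyte and macrophage markers was 2566 to 3979 at day 14, 1492 to 2212 at day 7 and 1503 to 2313 in control, with Csf1r at a mean of 1532 at day 14 and 740.2 in control. Of the 11, 4 rose and 1 fell at day 14, beside 18.3% and 34.1% of all tested genes. The 4 became 2 when control replicate 2 or day 14 replicate 2 or 3 was left out, and the 1 became 0 when control replicate 2 or day 14 replicate 1 was. The sum of 6 megakaryocyte markers was 1577 to 1857 at day 14, 732 to 779 at day 7 and 585 to 665 in control, with 5 of 6 higher at day 14 and 1 at day 7, that day 7 count being 0 when day 7 replicate 2 was left out and 2 when control replicate 2 was. The sum of 9 B and plasma cell markers was 528 to 652 at day 14, 506 to 583 at day 7 and 366 to 404 in control. Of the 8 tested, 5 rose and 1, Cd79b, fell at day 14, and 3 rose at day 7, a count of 1 when day 7 replicate 2 or 3 was left out. Of all tested genes, 2.21% rose at day 7 and 1.13% fell. The day 7 counts of megakaryocyte and of B and plasma cell markers both became 0 with no filter on dim probe sets.

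The 8 neutrophil markers with a probe set summed to 93.2 to 128 at day 14, 128 to 169.6 at day 7 and 123 to 145 in control. Of 5 tested, S100a8 and S100a9 fell at day 14, where 34.1% of all tested genes fell. That count of 2 became 1 when control replicate 3 or day 14 replicate 1 or 2 was left out. The 6 T and NK markers summed to 563 to 671 at day 14, 879 to 897 at day 7 and 729 to 847 in control, a sum mostly of Nkg7. Of the 4 tested, Nkg7 fell at day 14 (-0.49, adjusted p = 9.16e-04), while Cd3e and Cd8a rose, of which 1 was called when control replicate 3 or day 14 replicate 3 was left out. The 5 red cell markers with a probe set summed to 140.1 to 214 at day 14, 253 to 287 at day 7, and in control to 916 in replicate 1, the array with the highest members, and 181 and 181 in the other replicates. Without control replicate 1 the median log2 change of the 10 genes was -1.27 at day 14, against -1.34 with it, and -0.79 at day 7, against -0.90 with it. The part of the other cell types in the fall of the 10 genes was not tested.

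Across all genes the day 14 arrays stood apart from the rest, with 4312 genes lower and 2314 higher than control. Of the calls at day 14, 65.1% were lower with the values as deposited, 54.9% with quantile normalization and 42.6% with arrays set to the same 75th percentile. That percentile lay at 115 to 119 in the day 14 arrays and at 127 to 130.2 in the day 7 and control arrays. Setting it equal moved the median change of all genes at day 14 to 0.06, against -0.06 as deposited. The members' median was -1.22 with that scaling, against -1.34 as deposited. Relative to all genes it was -1.28 in both, which had to be so, because that scaling multiplies each array by a constant. With quantile normalization the members' median was -1.26. No depth is defined for arrays, and their number limits the precision.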

How the data were processed

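RNA of 9 sorted cell samples was measured on Affymetrix Mouse Genome 430 2.0 arrays after 2 cycles of amplification, per the labels. The authors deposited a normalized intensity per probe set on a linear scale; the design text names Affymetrix Microarray Analysis Software v5.0, while 51.6% of probe sets (23255 of 45037) hold equal values in at least 2 arrays, so the exact normalization stays unknown. Probe sets were named from the platform annotation: 34945 have 1 symbol, 932 several and 9160 none, and only the first were used. All sample columns were matched by the labels, leaving 0 unused.

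From the deposited intensities, values were floored at the 20th percentile (5.81) and put on the log2 scale. The probe set with the highest mean stood for a gene, and a gene was tested if above the 40th percentile of the array (14.1 to 15.2) in at least 3 arrays. limma 3.58.1 in R 4.3.3 was fitted once to all 9 arrays with 3 groups and no covariate, with Benjamini-Hochberg adjustment over 12652 genes, a threshold of 0.05 and 95% intervals. "Fell" and "rose" mean an adjusted p below 0.05. The fit was tested on simulated data. Alternatives changed the scaling, floor, offset, filter, probe set rule, variance prior, samples fitted and replicate block, and left out each array in turn.

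The members and gene lists were chosen with earlier results of these data known. Beyond the members, the text names up to 4 called genes per list, direction and comparison by size of change, the measured near copies, the 2 genes downstream of OAS, the JAK and ISGF3 genes, and the 8 genes most correlated with the members' mean. The other list genes named, among them the sensors past those 4 and cell type markers, serve to account for a count or a marker list. Sequences came from RefSeq.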

Additional observations from a re-analysis of the deposited data

Results flagged for a closer look

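The change from control at day 14 was set against that at day 7 by the direct difference between the days in limma, in log2 units, where a negative value means a lower level at day 14 than at day 7. Over all tested genes, 33.6% fell and 17.4% rose by this difference. Among the 10 genes it passed for Ifit1 (-1.15), Ifit3 (-0.77), Oas3 (-1.07), Ifit2 (-0.54) and Oas1a (-0.51). The call of Ifit3 was lost when day 14 replicate 1, day 14 replicate 3, day 7 replicate 1 or day 7 replicate 3 was left out (adjusted p = 0.0789 to 0.121). The call of Oas1a was lost when day 14 replicate 1 or day 7 replicate 1 was left out (adjusted p = 0.0888 to 0.0893). Neither MX gene passed. Among near copies it passed for Ifit1bl1 (-0.85), Oas1c (-0.50), Oas1e (0.25) and Oas1f (0.42). Oas1f passed the filter on dim signal only through its day 14 arrays, so its value cannot be read as a rise.

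Upstream genes passed in both directions, as did all tested genes, of which 33.6% fell and 17.4% rose between the days. Lower at day 14 than at day 7 were the receptor genes Ifngr2 (-0.61) and Il10rb (-0.33), the factor gene Irf3 (-0.39) and the brake gene Usp18 (-0.80). Higher at day 14 than at day 7 were Socs3 (1.65), Irf8 (0.64), Ifna1 (0.53), Jak2 (0.37), Jak1 (0.35), Ptpn2 (0.26) and Irf2 (0.25). The sensor genes that passed were lower at day 14 than at day 7, namely Dhx58 (-0.62), Eif2ak2 (-0.53), Ifih1 (-0.37), Mavs (-0.25) and Ddx58 (-0.21). Of 26 tested other interferon-stimulated genes, 10 were lower at day 14 than at day 7 and 0 were higher. That count of 10 ran from 6 to 11 with an array left out. Those of the list named in this text were Rtp4 (-0.79), Bst2 (-0.59), Lgals3bp (-0.50), Xaf1 (-0.47) and Parp9 (-0.34). Also lower was 1600014C10Rik (-0.27), which is in no list and was picked by its likeness to the members. Oas1e (adjusted p = 0.0562 to 0.0622) did not pass when day 14 replicate 1 or day 7 replicate 3 was left out. Irf8 (adjusted p = 0.0526 to 0.0861) did not pass when day 14 replicate 2, day 7 replicate 1 or day 7 replicate 2 was left out. Ptpn2 (adjusted p = 0.0529 to 0.0688) did not pass when day 14 replicate 3 or day 7 replicate 2 was left out. Usp18 (adjusted p = 0.0575 to 0.0608), Dhx58 (adjusted p = 0.0522 to 0.0684) and Parp9 (adjusted p = 0.101 to 0.11) did not pass when day 14 replicate 1 or day 7 replicate 1 was left out. Irf2 (adjusted p = 0.0517 to 0.125) did not pass when day 14 replicate 1, day 14 replicate 2, day 7 replicate 1 or day 7 replicate 2 was left out. Eif2ak2 (adjusted p = 0.055) and 1600014C10Rik (adjusted p = 0.0535) did not pass when day 7 replicate 1 was left out. Ifih1 (adjusted p = 0.0553 to 0.108) did not pass when day 14 replicate 1, day 14 replicate 3 or day 7 replicate 1 was left out. Ddx58 (adjusted p = 0.053 to 0.158) did not pass when control replicate 1, control replicate 2, control replicate 3, day 14 replicate 1, day 14 replicate 2 or day 7 replicate 1 was left out. Xaf1 (adjusted p = 0.0891 to 0.127) did not pass when day 14 replicate 1, day 7 replicate 1 or day 7 replicate 3 was left out. The Oas1f call ended when any day 14 array was left out, as it then did not pass the filter on dim signal. With the stricter filter, at the 60th percentile, the calls of Oas1f and Ifna1 were lost. With arrays set to the same 75th percentile, the calls of Ifit3, Oas1a, Il10rb, Ifih1, Ddx58, Mavs, Xaf1, 1600014C10Rik and Parp9 were lost (adjusted p = 0.0543 to 0.393). Under quantile normalization, the calls of Ifih1, Ddx58, Mavs, Xaf1, 1600014C10Rik and Parp9 were lost (adjusted p = 0.0711 to 0.273). When probe sets of a gene were averaged, the calls of Il10rb, Ptpn2, Ddx58, Mavs, Xaf1 and 1600014C10Rik were lost (adjusted p = 0.0562 to 0.406). Testing with no filter on dim probe sets ended the calls of Ifit3, Oas1a, Irf8, Usp18, Irf2, Dhx58, Eif2ak2, Ifih1, Ddx58, Xaf1 and Parp9 (adjusted p = 0.0649 to 0.118).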

How the results depend on the processing

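At day 14 against control, 9 or 10 of the 10 genes were called in every alternative and with any array left out, and Mx2 was the one lost. At day 7 the 4 calls became 0 with no filter on dim probe sets, where more genes were tested, and 2 with only the 2 groups compared, and ran from 0 to 6 with an array left out. Between the days the 5 calls became 3 with arrays set to the same 75th percentile and 3 with no filter, and ran from 3 to 7 with an array left out. Over all members, comparisons and alternatives, 537 results kept direction and side of the threshold, 51 lost the threshold, 11 gained it and 1 reversed, Mx1 between the days without day 7 replicate 1. Whether same-numbered samples belong together is not known. Of 9 same-numbered pairs, 1 had a correlation of deviations above 0.1 (range -0.19 to 0.12). Of 18 pairs with other numbers, 4 did (range -0.15 to 0.20). These correlations cannot decide it, because each deviation is taken from a mean of only 3 arrays. The fit with the replicate block called 9 members for day 14 and 3 for day 7 against control, and 5 between the days. It ended the calls of Mx2 at day 14 (adjusted p = 0.0613) and, at day 7, of Oas2 (0.0746), Usp18 (0.0762), Irf7 (0.0711), Rtp4 (0.0502) and Xaf1 (0.0761), and between the days of Ddx58 (0.0516) and Xaf1 (0.0548).

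With probe sets of a gene averaged, Tyk2 at 0.20 and Pde12 at -0.16 at day 14, Pde12 at -0.28 between the days and Irf3 at -0.038 at day 7 changed direction. With the 75th percentile, Irf3 did so at -0.0029 at day 7, and Stat2 at 0.024 and Ptpn6 at 0.011 between the days. Others changed direction with an array left out, where log2 changes at day 7 ran from -0.060 to 0.31 for Irf8, -0.040 to 0.058 for Irf3, -0.19 to 0.040 for Socs3 and -0.083 to 0.11 for Abce1, and those between the days from -0.22 to 0.024 for Stat2, -0.081 to 0.14 for Irf9, -0.39 to 0.011 for Irf7 and -0.34 to 0.093 for Mx1. The cause was not tested.

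Over all genes, 143 fell and 280 rose at day 7. These became 19 and 40 with no filter, 94 and 186 with the replicate block, 242 and 432 with a trended prior, 244 and 459 with an offset of 32 and 413 and 525 with every probe set, while 95 fell with only the 2 groups. With an array left out they ran from 17 to 175 and from 61 to 378. At day 14, 7598 fell and 4692 rose with every probe set, against 4312 and 2314, and 3953 rose at the 75th percentile. Between the days, 7099 fell and 4574 rose with every probe set, against 4251 and 2204, and 4029 rose at the 75th percentile.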
